A study of Homo sapiens with 16 samples.

Results

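The 50 genes described here encode the actin cytoskeleton and products tied to serum response factor (SRF): the cytoplasmic actins, proteins that bind actin monomers or filaments, non-muscle myosin and tropomyosin, the ARP2/3 complex, and SRF with its coactivators. They were taken by gene symbol from a list drawn up with earlier results of these data known. Their counts beside all tested genes therefore describe this list and are no independent test. All 50 have an identifier among the 58051 in the deposited table. Of these, 47 had a mean of at least 10 normalized counts over the libraries and were tested, as were 13765 genes in all. RNA was sequenced from P493-6, an immortalised human B cell line that carries a MYC transgene which doxycycline switches off, and an EBNA2 protein that needs oestrogen to act. For cells at high MYC the labels give no additive. Cells at medium MYC were given 0.1 µg/mL doxycycline together with 1 µM β-estradiol, starting 24 h ahead of the treatment. At each level cells then received 100 nM IMP1088, which blocks the N-myristoyltransferases NMT1 and NMT2, or its solvent DMSO, with a 24 h time point in the sample titles. Each of the 4 groups (high MYC with DMSO, high MYC with IMP1088, medium MYC with DMSO, medium MYC with IMP1088) had 4 libraries. MYC level, doxycycline and estradiol changed together, so their effects cannot be told apart. All groups come from 1 cell line, and the labels do not say whether the replicates were separate cultures, so the p-values measure the spread between these libraries, which may be technical.

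Actin cycles between monomers and filaments. Filaments are nucleated by the ARP2/3 complex and by formins, severed by cofilin and gelsolin, bundled by filamin, actinin and fascin, and pulled by non-muscle myosin. The monomer pool also controls transcription: the coactivators MRTFA and MRTFB bind monomeric actin and are held out of the nucleus by it, and when monomers are used up they join SRF on a DNA element called the CArG box, which has an A/T-rich core between CC and GG. Many genes of the actin cytoskeleton, actin itself among them, are textbook targets of SRF, and SRF also acts with ternary complex factors on immediate early genes. In B cells actin organises the contact with antigen, cell movement and receptor clustering. N-myristoyltransferases add myristate, a fatty acid, to a glycine at the start of their target proteins, some of which bind membranes and actin.

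Promoter sequences are shown because SRF's own site can be read in them. RefSeq windows on GRCh38.p14, from 250 bases before to 50 bases after a transcript start, matched 45 of the 50 genes with 87 windows. ACTB, FSCN1, ARPC1B, LSP1 and MYL9 had no window, so their promoters were not searched. The windows were searched for the CArG box, whose pattern reads the same on both strands. Boxes may overlap. An exact box occurred in 9 of the 87 windows (10.3%), against 1.29% of all 35116 windows of this length, and in 7 of the 45 genes (15.6%), against 1.6% of 27305 genes. In this count 1 FHL2 box lay in 2 overlapping windows and was counted in each. Known SRF targets were put on the list by choice, so a larger share than in all genes is no independent result. With at most 1 mismatch, 24 of the 87 windows (27.6%) held a match, against 18.9% of all windows, and 18 of the 45 genes (40.0%), against 22.3% of all genes. The members had more windows per gene than all genes, which can raise their share by gene. A match in letters is a description and not a measured binding site. Below, capitals mark the match and all sequences run 5′ to 3′ on the gene's strand. The window of SRF itself lies at chr6:43171019-43171318 on the plus strand and holds 2 exact boxes, whose first bases are 30 and 10 bases before the start:
SRF: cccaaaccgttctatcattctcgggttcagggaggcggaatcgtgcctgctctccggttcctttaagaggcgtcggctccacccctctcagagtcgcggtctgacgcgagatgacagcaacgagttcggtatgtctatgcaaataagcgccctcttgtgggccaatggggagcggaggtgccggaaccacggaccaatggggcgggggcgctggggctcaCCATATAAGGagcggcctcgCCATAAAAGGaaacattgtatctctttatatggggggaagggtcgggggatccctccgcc
The other exact boxes are shown with 20 bases on each side. They lie at chr17:81512864-81512913 (ACTG1, minus strand), chr19:1026499-1026548 (CNN2, plus strand), chr19:16067345-16067394 (TPM4, plus strand), chrX:154374699-154374748 (FLNA, minus strand) and chr14:68977708-68977757 (ACTN1, minus strand). FHL2, on the minus strand, has boxes at chr2:105438585-105438634 and chr2:105399081-105399130, in windows of different transcript starts:
ACTG1: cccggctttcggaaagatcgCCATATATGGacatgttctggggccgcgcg
CNN2: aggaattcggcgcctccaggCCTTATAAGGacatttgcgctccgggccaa
TPM4: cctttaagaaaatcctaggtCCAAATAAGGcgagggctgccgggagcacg
FLNA: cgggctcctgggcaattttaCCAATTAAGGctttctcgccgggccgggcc
ACTN1: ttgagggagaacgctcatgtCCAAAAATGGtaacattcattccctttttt
FHL2, first box: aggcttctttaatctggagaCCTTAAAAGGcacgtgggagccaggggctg
FHL2, second box: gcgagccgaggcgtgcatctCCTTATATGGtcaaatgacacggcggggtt
Among members that passed the test at both MYC levels, LIMA1, ZYX and PDLIM7 had the largest responses to the inhibitor when each member is taken at the MYC level where it changed more. No exact box was in their windows, which says only that these letters are absent there. The ZYX window (chr7:143381095-143381394, plus strand) has a match with 1 mismatch, in capitals. The windows of PDLIM7 (chr5:177497555-177497854, minus strand) and of the first LIMA1 start (chr12:50283471-50283770, minus strand) come no closer than 2 and 3 mismatches:
ZYX: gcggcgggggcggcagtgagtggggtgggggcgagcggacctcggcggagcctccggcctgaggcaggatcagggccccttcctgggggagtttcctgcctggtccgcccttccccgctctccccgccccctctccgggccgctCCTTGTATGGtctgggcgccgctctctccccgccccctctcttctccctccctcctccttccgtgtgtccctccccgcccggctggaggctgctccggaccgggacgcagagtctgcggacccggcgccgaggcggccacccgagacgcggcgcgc
PDLIM7: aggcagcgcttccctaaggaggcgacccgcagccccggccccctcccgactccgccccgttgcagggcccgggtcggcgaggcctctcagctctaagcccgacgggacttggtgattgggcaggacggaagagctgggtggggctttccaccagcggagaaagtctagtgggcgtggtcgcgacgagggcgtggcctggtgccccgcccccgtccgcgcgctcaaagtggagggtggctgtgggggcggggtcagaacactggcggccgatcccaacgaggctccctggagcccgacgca
LIMA1: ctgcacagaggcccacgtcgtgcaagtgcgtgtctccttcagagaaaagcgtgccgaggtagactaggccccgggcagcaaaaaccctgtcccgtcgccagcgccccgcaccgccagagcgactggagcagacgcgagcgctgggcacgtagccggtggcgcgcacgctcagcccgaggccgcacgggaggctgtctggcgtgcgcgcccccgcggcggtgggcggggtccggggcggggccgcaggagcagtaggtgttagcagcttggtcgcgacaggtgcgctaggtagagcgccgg

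Libraries held between 8755296 and 13858534 reads, and 18899 to 21081 genes per library were above 0. Levels are the authors' normalized counts, in which each library is divided by a size factor. These factors match the median, over genes, of a library's ratio to the average of all libraries. Library totals are not made equal by this. MYC checked the labels: its mean was 31649 with DMSO at high MYC and 959 at medium MYC; with the inhibitor it was 47542 and 1382. NMT1, a target of the inhibitor, averaged 1505 and 1454 without and with it at high MYC, and 1729 and 1662 at medium MYC; NMT2 was low, at 2.79 and 14.6 with DMSO at high and medium MYC. All 8 B cell markers were expressed. Their summed level was 40457 to 42852 in high MYC DMSO libraries, 34076 to 35258 with the inhibitor, 62836 to 66718 in medium MYC DMSO libraries and 56771 to 58372 with the inhibitor, the same order of groups as most of the actin genes; 7 of the 8 passed as lower with the inhibitor at high MYC and 5 at medium MYC, and none as higher. Between the DMSO groups 6 of the 8 B cell markers passed as higher at medium MYC and 2 as lower. The B cell markers that were lower were CD79A (means of 3096 at high and 2854 at medium MYC) and CD79B (1574 and 1464). Of 8 fibroblast and smooth muscle markers, DCN and LUM were at 0 everywhere. The summed level of the 8 was 148 to 155 in high MYC DMSO libraries, 80.3 to 108 with the inhibitor, 669.6 to 751 in medium MYC DMSO libraries and 566 to 597 with the inhibitor, also in that order. Within this list COL1A1 was higher with the inhibitor on average, at 7.09 against 11.1 at high MYC and 164 against 206 at medium MYC, DMSO first, while PDGFRB was lower (123 against 66.4, and 436 against 304). The part of these marker sums in the results of the actin genes was not tested. For 7 T cell markers the sums ran from 57.2 to 245 in the same order of groups, with the medium MYC groups overlapping (185 to 245 with DMSO, 157 to 192 with the inhibitor). Between the DMSO groups TRAC (means of 27.8 at high and 132 at medium MYC) and CD3E (37.3 and 59.6) passed as higher at medium MYC. CD3G was lower there (28.7 and 21.6) and did not pass, and the other 4 were too low to test. The 8 platelet and myeloid markers did not follow this order. Their sums were 42.2 to 67.1 in high MYC DMSO libraries and 51.6 to 65.5 with the inhibitor. At medium MYC they were 54.2 to 65.6 with DMSO and higher with the inhibitor, at 80.7 to 86.4. LYZ, the 1 gene of this list that was tested, passed as higher with the inhibitor at medium MYC (means of 49.4 and 67.7). PF4, PPBP and GP9 were at 0 in all libraries.

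The inhibitor lowered most of the actin genes at both MYC levels. At high MYC 40 of the 47 tested members fell and 1 (EZR) rose, and at medium MYC 41 fell and none rose, by limma's moderated test on log2 of the normalized count plus 1 with Benjamini-Hochberg adjustment over all tested genes at an adjusted p under 0.05. The background at high MYC was 26.8% of all tested genes called, 16.3% lower and 10.5% higher. At medium MYC 26.3% were called, 14.6% lower and 11.7% higher. Both actins, all 7 genes for monomer binding and filament turnover, and all 11 of the ARP2/3, capping and coronin group fell at both levels. Among all members the median log2 change was -0.35 at high MYC and -0.51 at medium MYC, against -0.02 and -0.01 for all tested genes. In all 39 members fell at both levels (8.38% of tested genes did), MYL12B fell at high MYC alone and ACTN1 at medium MYC alone by the threshold. FHL3, ABLIM1, TAGLN2, TPM1 and MRTFB passed at neither level. Of the genes whose exact CArG boxes are shown above, SRF, ACTG1, CNN2, TPM4 and FLNA fell at both levels, ACTN1 at medium MYC alone, and FHL2 was too low to test. With 39 of all 47 tested members lower at both levels, these counts do not set the genes with a box apart. The 4 inhibitor libraries did not overlap the 4 DMSO libraries for 39 of 47 members at high MYC and for 42 at medium MYC (background 26.7% and 27.9%). Most members are abundant: with the minimum mean raised to 100, the share of the 9604 genes left that fell was 21.4% at high MYC and 19.7% at medium MYC, and 41 of the 46 members left fell at each level. Because these are bulk libraries, less RNA of a gene per cell and fewer cells that express it cannot be told apart.

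**Figure D1:**
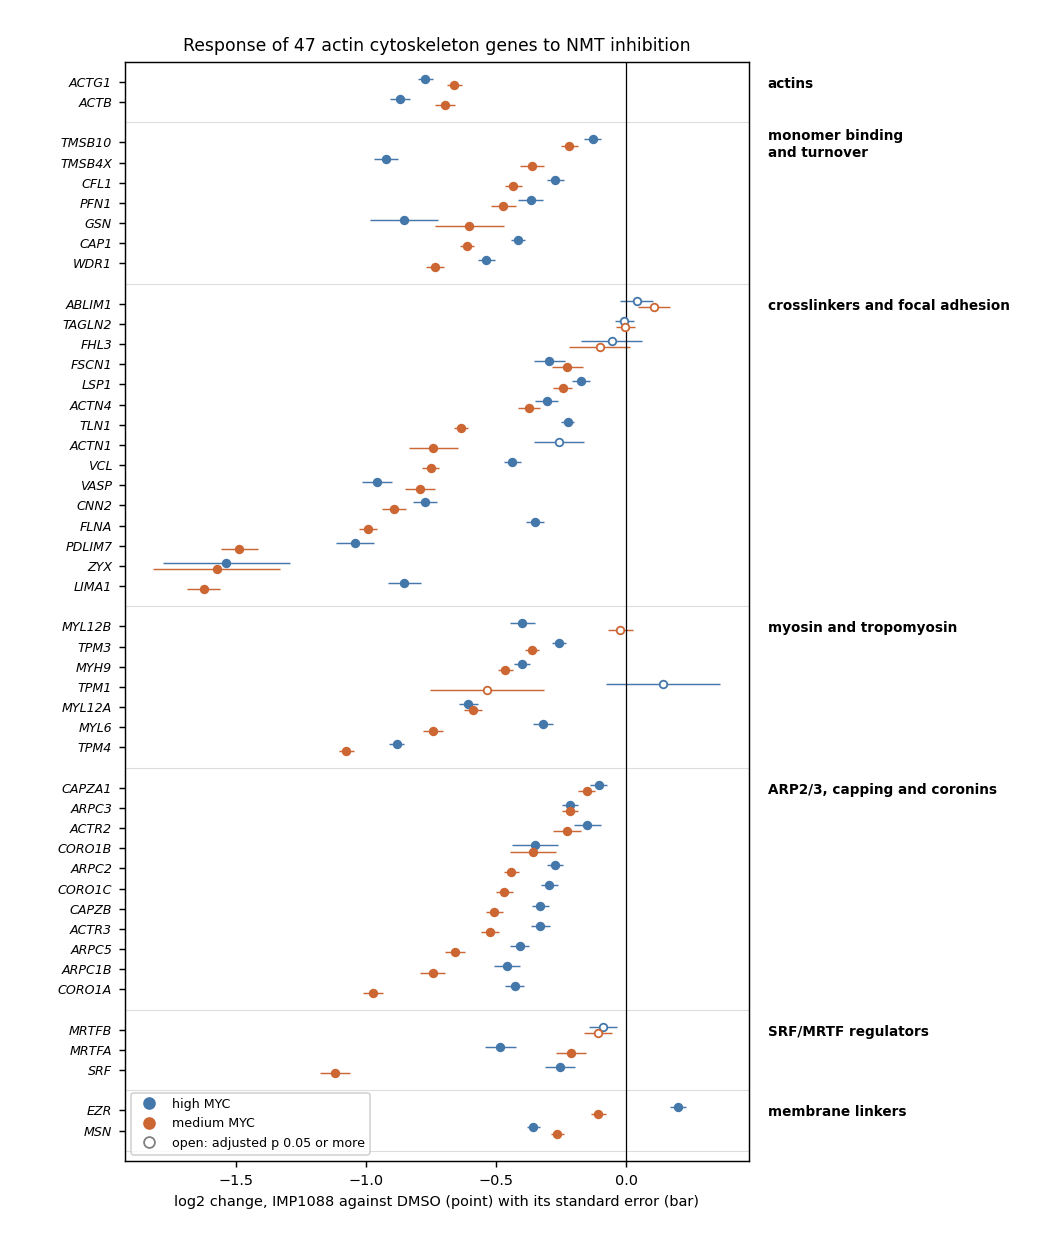
Log2 change with IMP1088 against DMSO for the 47 tested members, grouped by role, at high MYC (blue) and medium MYC (orange). Points are fitted changes and bars their standard errors; open points did not pass the adjusted p of 0.05. Nearly all points lie left of 0, furthest for LIMA1, ZYX and PDLIM7 at medium MYC and ZYX at high MYC, and EZR at high MYC is the called point to the right of 0.

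ACTB and ACTG1 encode the β- and γ-cytoplasmic actins that form the filaments of non-muscle cells. ACTB (chr7:5527147-5563784, minus strand, GENCODE on GRCh38) measured 48475, 46786, 44345 and 43986 normalized counts in the 4 high MYC DMSO libraries and 24499, 24676, 25636 and 25520.3 with the inhibitor. At medium MYC it measured 161145, 158954, 181543 and 161292 with DMSO and 99670.1, 103966, 103289 and 100943 with the inhibitor. The 4 groups did not overlap, and each inhibitor group lay below its own control. The fall was 1.83-fold at high MYC (log2 change -0.87, SE 0.04, adjusted p = 7.26e-13). It was 1.62-fold at medium MYC (log2 change -0.70, SE 0.04, adjusted p = 1.04e-11). Under quantile normalization the medium MYC change was smaller, at -0.43. ACTB took 0.444% of a library's reads with DMSO at high MYC and 0.246% with the inhibitor, and 1.6% and 1.01% at medium MYC (means of 4).

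ACTG1 (chr17:81509971-81523847, minus strand) showed the same order of groups. Its values at high MYC were 22333, 21864, 21342 and 21593 with DMSO and 12409.9, 12641, 13039 and 12908 with IMP1088. At medium MYC they were 41290.4, 40188, 44241 and 41737 with DMSO, against 25968, 26966, 26765 and 26117 with the inhibitor. No inhibitor library reached a DMSO library of the same MYC level. The log2 changes were -0.77 (SE 0.03) at high MYC and -0.66 (SE 0.03) at medium MYC, with adjusted p-values of 3.74e-14 and 1.98e-13. The annotation names 10 pseudogenes after ACTB and 20 after ACTG1, so reads shared with these copies make both levels uncertain.

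**Figure D2:**
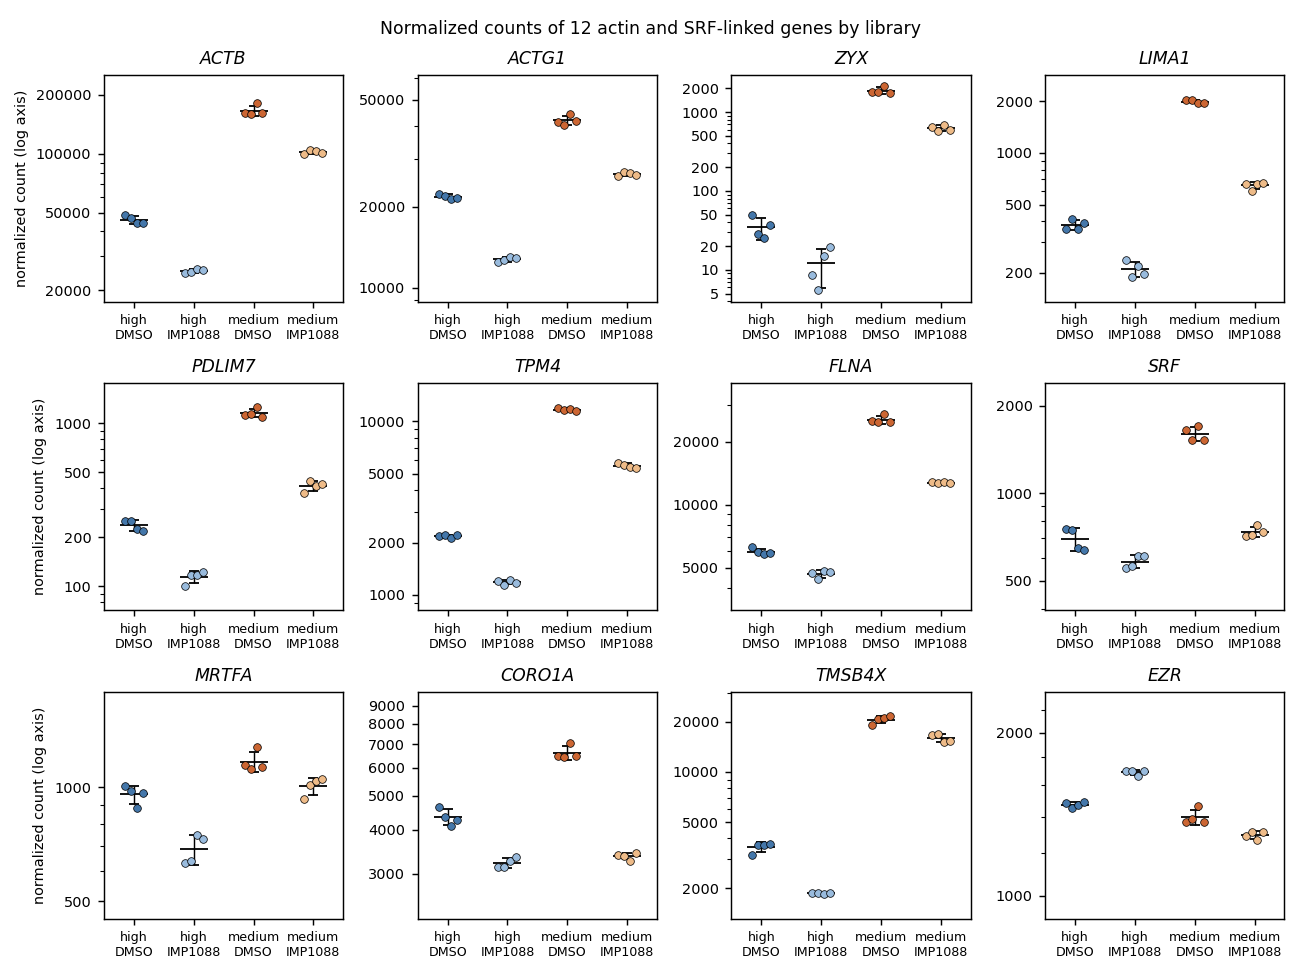
Normalized counts (log axis, limits differ between panels) of 12 members in each of the 16 libraries. Points are libraries, and the cross bar and whiskers are the mean and SD of 4. For ACTB the medium MYC libraries with IMP1088 (99670.1 to 103966) stay above the high MYC DMSO libraries (43986 to 48475), while for SRF these groups overlap.

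The genes for monomer binding and filament turnover fell at both levels in every case, as did 8.38% of all tested genes. TMSB4X, thymosin β4, holds actin monomers in reserve. Its normalized counts were 3166, 3633, 3659.8 and 3708 with DMSO and 1882, 1862, 1835 and 1866 with the inhibitor at high MYC. At medium MYC they were 19151, 20758, 21006 and 21736 with DMSO, against 16693, 16937, 15209 and 15407 with the inhibitor. The inhibitor libraries were below their controls at both levels, by 1.9-fold and 1.29-fold (log2 changes -0.93 and -0.36, SE 0.05, adjusted p = 5.21e-12 and 3.38e-06). WDR1, a cofactor of cofilin in filament disassembly, fell by 0.54 and 0.74 on the log2 scale at high and medium MYC. CAP1, which recycles monomers, fell by 0.42 and 0.61. CFL1, which encodes cofilin, fell by 0.27 and 0.44, and PFN1, profilin, which feeds monomers to growing filaments, by 0.37 and 0.47. The severing protein gelsolin, GSN, was a low gene with 100.4 to 125 normalized counts with DMSO and 53.2 to 70.7 with the inhibitor at high MYC. It fell by 0.85 (SE 0.13) and 0.60 (SE 0.13). TMSB10, a second thymosin, had the smallest change of the 7, -0.13 and -0.22, and its call at high MYC was lost under quantile normalization (-0.06).

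Crosslinkers and focal adhesion genes held both the largest falls and most of the members that passed at neither level. Of 15 tested, 11 fell at high MYC and 12 at medium MYC, against 16.3% and 14.6% of all tested genes. ZYX encodes zyxin, a LIM protein of adhesions and stressed filaments. It had 49.7, 28.1, 25.4 and 36.9 normalized counts with DMSO and 8.6, 5.55, 14.8 and 19.8 with the inhibitor at high MYC, which rest on 23 to 66 and 5 to 19 reads per library. At medium MYC it had 1809, 1796, 2134 and 1722 with DMSO, against 642, 572, 691 and 594 with the inhibitor. The ranges were separate at both levels, but the relative spread at high MYC was wide. ZYX fell 2.91-fold at high MYC (log2 change -1.54, SE 0.24, adjusted p = 6.03e-05) and 2.98-fold at medium MYC (log2 change -1.57, SE 0.24, adjusted p = 4.06e-05). Its exons overlap EPHA1 on the opposite strand, and EPHA1 was at 0 in all 16 libraries.

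LIMA1, or EPLIN, bundles filaments and slows their branching. Its levels were 359, 412, 358 and 390.1 with DMSO and 238, 189.7, 218 and 195 with the inhibitor at high MYC. At medium MYC they were 2051, 2028, 1965 and 1946 with DMSO, against 663, 603, 656 and 667 with the inhibitor. All inhibitor libraries lay below their controls, and the gap was wider at medium MYC. The fall was 1.81-fold at high MYC and 3.08-fold at medium MYC (adjusted p = 1.52e-09 and 3.13e-14). PDLIM7 is a PDZ and LIM adaptor on actin fibres. Its levels were 252, 252, 224 and 219 against 100.0, 118, 118 and 123 at high MYC and 1128, 1149.8, 1263 and 1099 against 374, 444, 412 and 422 at medium MYC, DMSO first. It fell 2.06-fold and 2.81-fold, again with no overlap (adjusted p = 6.41e-10 and 1.41e-12).

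FLNA, filamin A, links filaments into networks. It measured 6260.2, 5955, 5803 and 5911 with DMSO and 4718, 4407, 4861 and 4787 with the inhibitor at high MYC. At medium MYC it measured 25054, 24826, 27167 and 24772 with DMSO, against 12870.3, 12680.5, 12844 and 12699 with the inhibitor. The groups were separate, with the smaller gap at high MYC: 1.27-fold against 1.99-fold (log2 changes -0.35 and -0.99, SE 0.03). VASP, which elongates filaments, fell by 0.96 and 0.79 at high and medium MYC (log2, SE 0.06). CNN2, calponin 2, fell by 0.77 and 0.89. Vinculin, VCL, and talin 1, TLN1, couple integrins to actin. VCL fell by 0.44 and 0.75, and TLN1 by 0.23 and 0.64. ACTN1, an actinin, passed at medium MYC (-0.74, adjusted p = 4.19e-06) and missed narrowly at high MYC (-0.26, adjusted p = 0.0512), where 7 of 29 alternatives called it (adjusted p from 0.0155 to 0.219). Fascin, FSCN1, the related actinin ACTN4 and LSP1 had small falls, from -0.17 to -0.38. The remaining members of the group did not pass at either level, with DMSO and inhibitor means at high MYC of 3089 and 3070.3 for TAGLN2, 959 and 986 for ABLIM1, and 132 and 126 for FHL3.

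Among myosin and tropomyosin genes 6 of 7 tested fell at high MYC and 5 at medium MYC, against 16.3% and 14.6% of all tested genes. TPM4 encodes a tropomyosin, which lies along filaments and governs access to them. It measured 2174, 2201, 2121 and 2225 with DMSO and 1197, 1142, 1213 and 1177 with the inhibitor at high MYC, and 11878, 11593, 11846 and 11504 with DMSO, against 5747, 5633, 5426 and 5393 with the inhibitor at medium MYC. Replicates were close and the groups far apart, with falls of 1.84-fold and 2.11-fold (adjusted p = 4.39e-15 and 9.73e-17). TPM3 fell by 0.26 and 0.36 on the log2 scale. TPM1 had only 6.74 to 12.8 normalized counts with DMSO at high MYC and 77.2 to 97.1 at medium MYC. Its changes, 0.14 (SE 0.22) and -0.54 (SE 0.22), did not pass (adjusted p = 0.691 and 0.0804). At medium MYC its inhibitor libraries, at 55.5 to 63.7, still lay below all DMSO libraries. The medium MYC change was called in 5 of 28 alternatives (adjusted p from 0.00316 to 0.177). MYH9, the heavy chain of non-muscle myosin IIA, fell by 0.40 and 0.47. Of its regulatory light chains, MYL12A fell by 0.61 and 0.59. MYL12B fell by 0.40 at high MYC and measured 1273 to 1469 with DMSO and 1329.6 to 1420.2 with the inhibitor at medium MYC, overlapping ranges. MYL6, the essential light chain, fell by 0.32 and 0.74. Its exons overlap MYL6B on the same strand, where no change passed.

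The ARP2/3 complex starts branched filaments, capping protein blocks their fast-growing ends, and coronins regulate branch turnover. All 11 members of the group fell at both levels, as did 8.38% of all tested genes. Their log2 changes were between -0.11 and -0.46 at high MYC and between -0.15 and -0.97 at medium MYC. CORO1A, the coronin of blood cells, fell most at medium MYC. Its values were 4644, 4356, 4095 and 4268 with DMSO and 3128, 3143, 3253 and 3354 with the inhibitor at high MYC, and 6488, 6424, 7052 and 6484 with DMSO, against 3383, 3368, 3265 and 3437 with the inhibitor at medium MYC. With the inhibitor the medium MYC libraries were no higher than 3437, below all high MYC DMSO libraries. The fall was 1.35-fold and 1.97-fold (adjusted p = 1.72e-08 and 2.72e-14). The ARP2/3 subunit ARPC1B followed with -0.46 and -0.74, and ARPC5 with -0.41 and -0.66. ACTR3, one of the 2 actin-related core subunits, had -0.33 and -0.52. The other, ACTR2, had -0.15 (adjusted p = 0.0401) and -0.23, and its high MYC call was lost in 12 of 29 alternatives (adjusted p from 1.78e-06 to 0.174). Capping protein's α1 subunit, CAPZA1, had the smallest changes, -0.11 and -0.15. The first was lost in 4 of 29 alternatives. CORO1B has exons overlapping PTPRCAP, itself lower at both levels (-1.03 and -0.95), and the overlap is on the same strand, so reads from the shared exons cannot be assigned to 1 of them.

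SRF and its coactivator MRTFA fell at both levels, and MRTFB passed at neither. SRF (chr6:43171299-43181507, plus strand) measured 752, 748, 646 and 636 with DMSO and 554, 559, 606 and 607 with the inhibitor at high MYC. At medium MYC it measured 1651, 1527, 1707 and 1519 with DMSO, against 709.5, 717, 778 and 736 with the inhibitor. All inhibitor libraries were below their controls, narrowly at high MYC and by a wide gap at medium MYC. SRF fell 1.19-fold at high MYC (log2 change -0.25, SE 0.06, adjusted p = 0.00197) and 2.17-fold at medium MYC (log2 change -1.12, SE 0.06, adjusted p = 3.1e-12). MRTFA measured 1008, 975, 884 and 965 against 629, 638, 749 and 728 at high MYC and 1142, 1121, 1279 and 1132 against 932, 1011, 1039 and 1049 at medium MYC, DMSO first. Its fall was the larger one at high MYC, 1.4-fold against 1.16-fold (adjusted p = 2.36e-06 and 0.00992). MRTFB, with 445 to 487 and 423 to 463 at high MYC and 587 to 670.5 and 544 to 633 at medium MYC, overlapped between groups. Its log2 changes had intervals of -0.20 to 0.02 and -0.22 to 0.00 (95%).

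EZR and MSN encode ezrin and moesin, which tether filaments to the plasma membrane. MSN fell by 0.36 at high MYC and 0.26 at medium MYC. EZR rose at high MYC, from 1480.0, 1452, 1468 and 1489.8 with DMSO to 1698, 1696, 1662 and 1702 with the inhibitor. At medium MYC it went from 1366, 1384, 1461 and 1369 to 1289, 1309, 1269 and 1312. The groups did not overlap at either level, and the directions were opposite: log2 change 0.20 (SE 0.03, adjusted p = 2.85e-05) and -0.11 (SE 0.03, adjusted p = 0.00891). The medium MYC call was lost with equal library totals (adjusted p = 0.05) and with quantile normalization (adjusted p = 0.054), over a range of 0.00466 to 0.054 in its alternatives.

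The sizes of the responses at the 2 MYC levels were compared in the same fit. The difference passed for 23 of 47 members (background 8.63% of all tested genes, 3.31% with a positive and 5.33% with a negative difference). For 19 of the 23 the fall was larger at medium MYC. They were CFL1, WDR1 and CAP1 among turnover genes, VCL, LIMA1, PDLIM7, FLNA, TLN1 and ACTN1 among crosslinkers, MYL6 and TPM4, then ARPC1B, ARPC2, ARPC5, ACTR3, CAPZB, CORO1A and CORO1C, and SRF. The difference, written as the high MYC change minus the medium MYC change, was 0.87 for SRF (SE 0.08, adjusted p = 2.29e-07). It was 0.77 for LIMA1 (SE 0.09, adjusted p = 3.94e-06), 0.64 for FLNA (adjusted p = 7.99e-09) and 0.54 for CORO1A (adjusted p = 3.63e-07). For 3 members the fall was larger at high MYC: TMSB4X with -0.56 (adjusted p = 4.78e-06), MYL12B with -0.38 (adjusted p = 0.000651) and MRTFA with -0.27 (adjusted p = 0.0475). The MRTFA difference was lost in 14 of 28 alternatives, with adjusted p up to 0.107. EZR, with opposite directions, differed by 0.31 (adjusted p = 3.67e-05). For ACTB and ACTG1 the difference was -0.17 (95% interval -0.28 to -0.06, adjusted p = 0.053) and -0.11 (-0.20 to -0.03, adjusted p = 0.0974). Neither passed, but 11 of 28 alternatives called it for ACTB, among them equal library totals (-0.18) and quantile normalization (-0.55), and 5 of 28 called it for ACTG1. For ZYX the difference was 0.04, with a wide interval of -0.68 to 0.75.

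**Figure D3:**
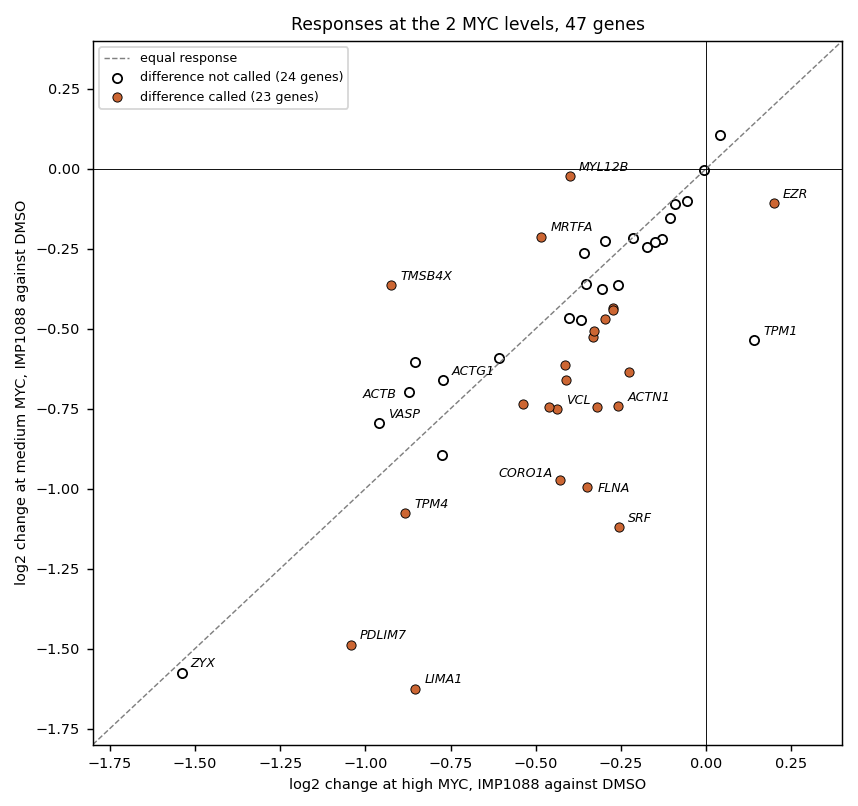
Log2 change with IMP1088 against DMSO at high MYC (x axis) and medium MYC (y axis) for the 47 tested members. Filled points are the 23 members whose difference in response passed, and the dashed line marks equal responses. SRF, LIMA1, FLNA and CORO1A lie below the line, with larger falls at medium MYC, and TMSB4X, MYL12B and MRTFA lie above it.

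Between the DMSO groups most members were higher at medium MYC. Of 47 tested, 42 were higher and 4 lower (FHL3, ABLIM1, TAGLN2 and EZR), and LSP1 did not pass. This has to be read against a background in which 76.2% of tested genes were called, 38.9% higher and 37.3% lower. The median log2 difference was 1.18, against 0.02 over all tested genes, and 27 members exceeded a log2 difference of 1 in size. DMSO libraries of the 2 levels did not overlap for 44 members (background 69.2%), the exceptions being LSP1, TAGLN2 and EZR. ZYX differed most, with 25.4 to 49.7 at high MYC and 1722 to 2134 at medium MYC, a 53.4-fold higher level on the fitted scale (log2 5.74, SE 0.24). FSCN1, which bundles filaments into spikes, measured 139 to 156 at high MYC and 5547 to 6573 at medium MYC (38.5-fold). Next came TPM1 (8.32-fold), VASP (6.52-fold), MYL6 (6.26-fold), TMSB4X (5.84-fold), TPM4 (5.37-fold) and LIMA1 (5.26-fold). ACTB was 3.61-fold and ACTG1 1.92-fold higher. Differences were smaller for SRF (2.31-fold), MRTFB (1.33-fold) and MRTFA (1.22-fold). In the opposite direction, ABLIM1, an actin-binding LIM protein, measured 922 to 997 at high MYC and 225 to 273 at medium MYC (log2 -1.92, SE 0.06).

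**Figure D4:**
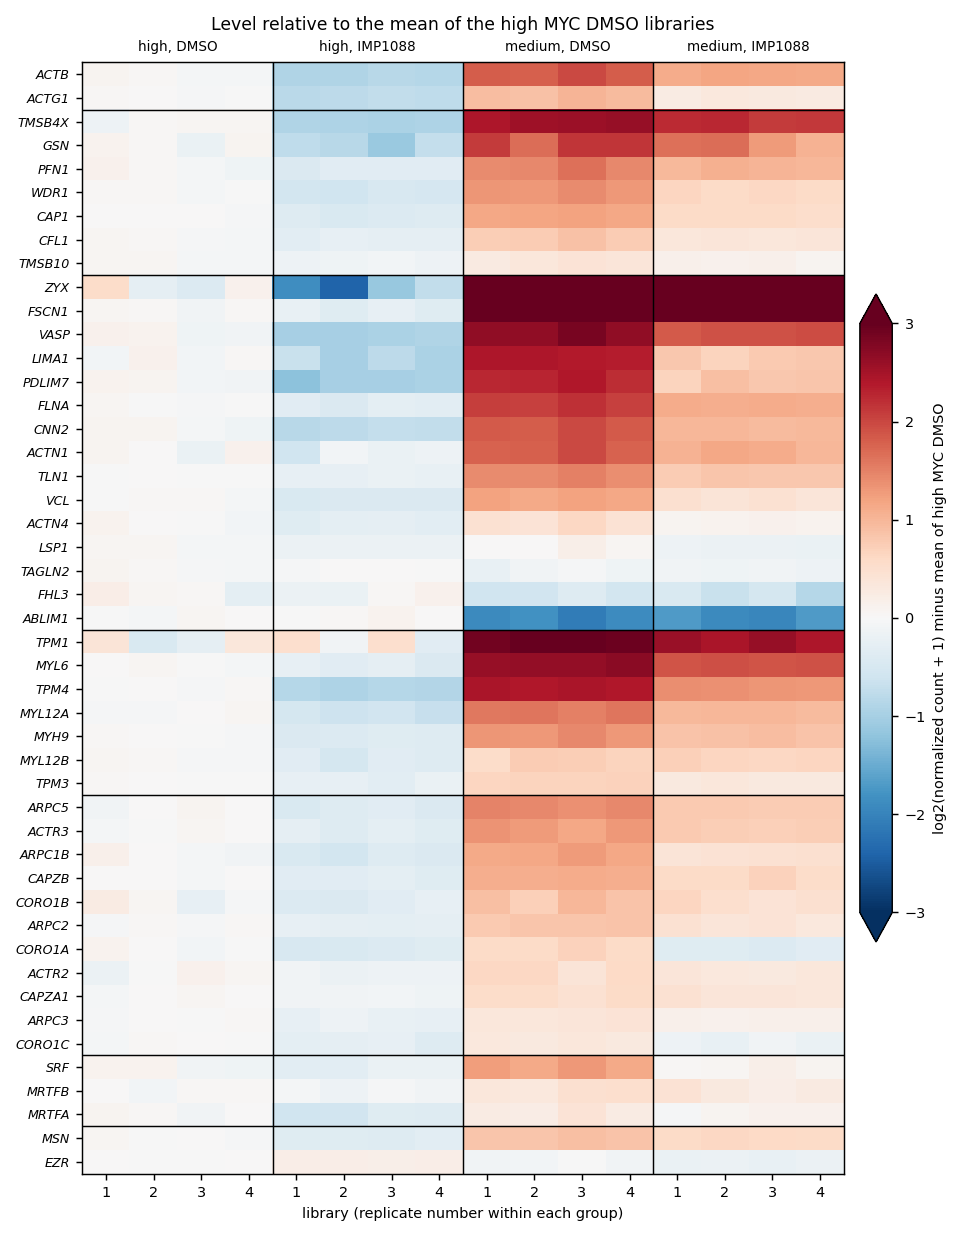
Log2 of the normalized count plus 1 of the 47 tested members in each of the 16 libraries, minus the gene's mean in the high MYC DMSO libraries. Colours stop at 3 in either direction, which ZYX, FSCN1 and, in 2 DMSO libraries, TPM1 exceed at medium MYC. The second block is mostly blue, the third mostly red, and the fourth is paler than the third.

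Of the 39 members that fell with the inhibitor at both levels, 38 were also higher at medium MYC with DMSO (5.35% of tested genes show all 3 calls). The comparisons share the DMSO libraries, so the calls are not independent. The inhibitor did not bring most medium MYC levels down to those at high MYC with DMSO. For 37 of 47 members all 4 medium MYC inhibitor libraries stayed above all 4 high MYC DMSO libraries (background 35.1%). For 7 they were below (background 34.3%), and for ACTN4, MRTFA and SRF they overlapped. Of the 7, only CORO1A and CORO1C had been higher at medium MYC with DMSO. ABLIM1, EZR, FHL3 and TAGLN2 were already lower there with DMSO, and LSP1 did not pass between the DMSO groups. SRF with the inhibitor at medium MYC, 709.5 to 778, overlapped the 636 to 752 seen at high MYC with DMSO. Together the 50 members took 1.65% ± 0.0238 of a library's reads at high MYC with DMSO, 1.18% ± 0.00718 with the inhibitor, 4.41% ± 0.118 at medium MYC with DMSO and 2.94% ± 0.0335 with the inhibitor (SD, n = 4). The actins made up 0.654%, 0.3703%, 2.01% and 1.27% in the same order.

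Other genes of the pathway were read from lists outside the members, whose counts stand beside the background of 16.3% of tested genes lower and 10.5% higher at high MYC, and 14.6% lower and 11.7% higher at medium MYC. Of 20 further SRF and MRTF targets only 11 reached the level for a test: 4 fell at high MYC and 5 at medium MYC, and none rose. Their median log2 changes were -0.17 and -0.25. MYH10, the heavy chain of non-muscle myosin IIB, fell by 0.17 at both levels (2356 to 2099.8 and 2559 to 2282 on average). CNN3 passed at medium MYC (-0.48) and FHL1 at both (-0.18 and -0.25). The FHL1 call at high MYC was lost in 3 of 29 alternatives (adjusted p from 0.00387 to 0.0657): under quantile normalization (adjusted p = 0.0657), without DMSO library 1 (0.0522) and without inhibitor library 4 (0.0521). None of the 9 immediate early genes that SRF shares with ternary complex factors fell: 2 rose at high MYC and 5 at medium MYC. With 9 genes, a count of 0 lower and the 2 higher at high MYC are near the background shares. JUNB, a subunit of AP-1, rose from 423, 365, 359 and 382 to 471, 526, 561 and 506 at high MYC and from 1310.1, 1354, 1569 and 1242 to 1398, 1824, 1834 and 1846 at medium MYC (1.35-fold and 1.26-fold, adjusted p = 0.000443 and 0.00462), with overlap at medium MYC. IER2 and the survival gene MCL1 rose at medium MYC by 0.38 and 0.24 on the log2 scale, and their high MYC changes of 0.13 and 0.04 did not pass. The IER2 change at high MYC was called in 3 of 29 alternatives (adjusted p from 0.00464 to 0.383), at 0.199 with GC correction, alone or with a replicate block, and at 0.198 without inhibitor library 1.

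WASP and WAVE genes, which switch on ARP2/3, had 7 of 15 lower and 1 higher at high MYC, and 6 of 15 lower at medium MYC, against 16.3% and 14.6% of all tested genes lower. HCLS1, a cortactin relative, fell by 0.20 and 0.48 and the WAVE subunit gene NCKAP1L by 0.35 and 0.19. Of the 9 remaining ARP2/3 and capping genes, 4 and 5 fell, with ARPC4 at -0.32 and -0.52 and the capping protein CAPG at -0.53 and -0.46.

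For the lists that follow, the background was again 16.3% of tested genes lower and 10.5% higher at high MYC. At medium MYC it was 14.6% lower and 11.7% higher. Of 24 other actin-binding genes tested, 16 fell and 1 rose at high MYC, and 18 fell and 1 rose at medium MYC. LCP1, the filament bundler L-plastin of blood cells, went from 13052, 12980.1, 13310.4 and 12795 to 7634, 7565, 7808 and 7457 at high MYC and from 45653, 45743, 46160.4 and 46017 to 36988, 36639, 36896 and 35703 at medium MYC. It fell 1.71-fold and 1.26-fold, more at high MYC (difference -0.45, adjusted p = 5.62e-09, lost under quantile normalization at 0.0709). COTL1, a cofilin-like protein, fell by 0.43 and 0.96, more at medium MYC (difference 0.53, adjusted p = 6.8e-08), and MYO1G, a membrane myosin, fell by 0.77 and 0.48. Of 6 actin regulators known to be N-myristoylated themselves, 3 fell at each level, too few genes for a reading of N-myristoylated proteins as a set. BASP1, a membrane-bound protein of this kind, measured 42.5 to 53.5 with DMSO and 20.8 to 32.3 with the inhibitor at high MYC, a fall of 1.85-fold, and 553 to 652 and 586 to 637 at medium MYC, where its ranges overlapped. The difference was -0.90 (adjusted p = 0.000457). FMNL1 and MARCKSL1 had falls of 0.31 and 0.21 at high MYC and 0.20 and 0.22 at medium MYC, where GC correction left -0.11 and -0.15, still called. Of 17 tubulin, intermediate filament and lamin genes, 12 fell at high MYC and 11 at medium MYC, with median changes of -0.19 and -0.18. The α-tubulin TUBA1B fell by 0.24 at both levels, and under quantile normalization by 0.11 at medium MYC, still called.

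**Figure D5:**
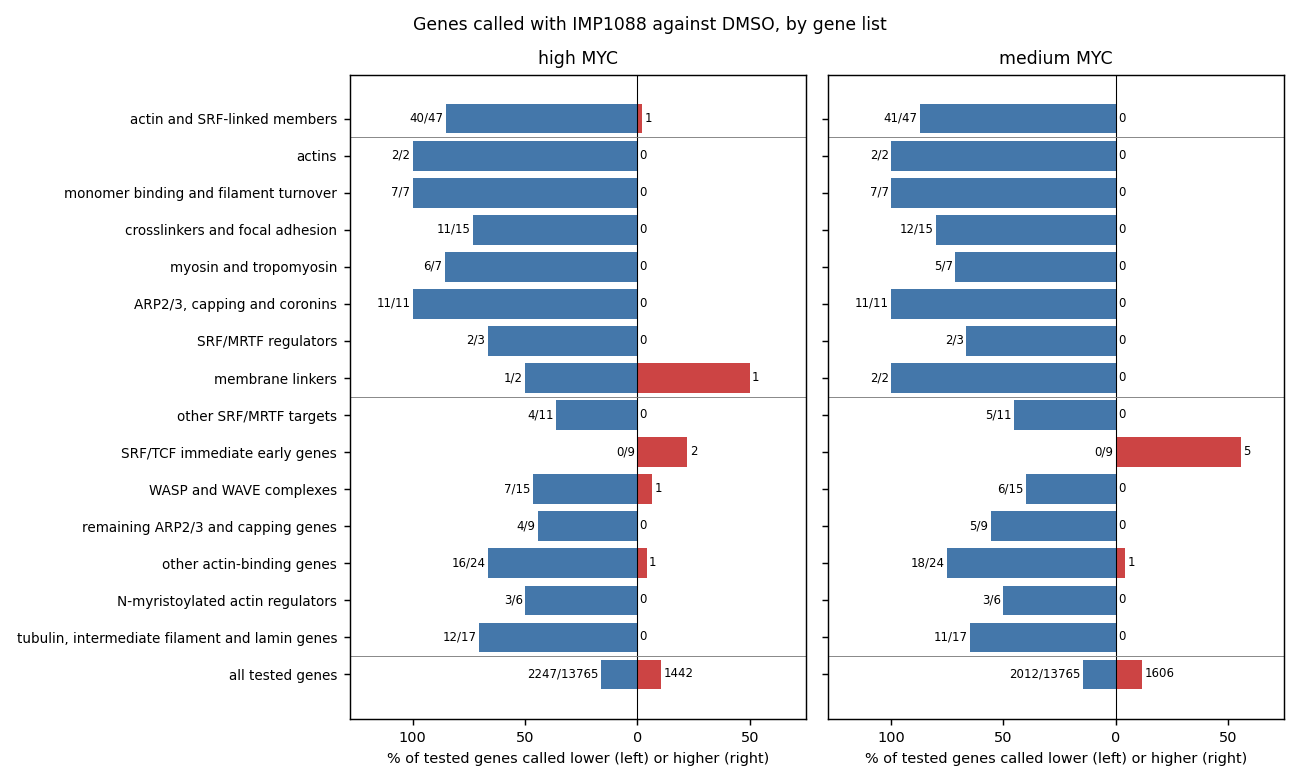
Share of tested genes called lower (blue, left) or higher (red, right) with IMP1088 against DMSO, for the members, their role groups, the other lists described and all tested genes, at high and medium MYC. Numbers are genes called of genes tested. The members stand at 40 and 41 of 47 lower, and the immediate early list is the one with no gene lower at either level.

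The 3 untested members were near the limit of detection. FHL2, a LIM coregulator and known SRF target, had 0 reads in all 8 high MYC libraries, which allows up to 3 reads in each. It had 18 reads in the 4 medium MYC DMSO libraries together and 1 read in the 4 with the inhibitor. MYL9, a smooth muscle myosin light chain, had 2 reads, both at medium MYC with DMSO. MICAL2, which oxidises actin in the nucleus, had 4 and 8 reads at high MYC with DMSO and the inhibitor, and 3 and 0 at medium MYC. Of the 50 members 29 have exons that overlap another gene (8 on the same strand), and 21 have pseudogenes named after them. How the counting treated strand is not given in the sources used here.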

How the data were processed

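RNA from 16 libraries was prepared with a QIAGEN miRNeasy kit and a Nugen cDNA kit, per the labels' protocols, which also name Illumina HiSeq sequencing. The submitters' processing notes name STAR 2.5.2a, RSEM 1.2.31, DESeq2 1.16.1 and GRCh38, without role or order. The annotation and the use of strand are not given in the sources used here. The deposited table holds an expression signal, which the authors call normalized counts. In every library 100% of its values were whole multiples of 1 step (tolerance 1e-06 reads). Whole counts were recovered from this, 8755296 to 13858534 per library, and are called reads here. The values do not show whether each such count was 1 sequenced read. A gene's 95% intervals come from the fit, and read limits cover counting error only.

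Genes were kept at a mean of at least 10 (13765 of them) and fitted with limma 3.58.1 in R 4.3.3 on log2(value + 1), a scale that understates changes of low genes. There was 1 fit of 4 group means with a mean trend, no block, two-sided tests and Benjamini-Hochberg adjustment. It was tested on simulated data. The recovered counts were also tested with edgeR 4.0.16 and DESeq2 1.42.0. Other alternatives were pseudocounts of 0.1 and 10, no filter or a mean of at least 100, equal totals, TMM and quantile scaling, GC correction, a replicate block, only the compared groups, and leaving out each library. Positions and exon overlaps come from GENCODE release 29 and promoters from RefSeq.

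Members and lists were chosen with earlier results of these data known. Named members were ACTB, ACTG1, SRF, MRTFA and MRTFB, the 6 largest called changes per comparison (mean of at least 50) and all members called for the difference. Up to 3 genes were named per other list; 1 list is not reported here. Further members were named to account for the list, after their values were seen.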

Additional observations from a re-analysis of the deposited data

Results flagged for a closer look

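Within 188 groups of 4 libraries (47 members in 4 groups), 24 had a highest or lowest library set apart from the other 3 by more than Dixon's critical value at 95%; chance alone sets apart about 1 in 20. The third DMSO library at medium MYC was the one concerned in 12 of the 24, high for 11 members and low for 1. Against the range of the other 3 libraries, its values were 181543 for ACTB (others 158954 to 161292), 18284 for PFN1 (15549 to 15959), 27167 for FLNA (24772 to 25054), 3214 for ACTN4 (2782 to 2853) and 6573 for FSCN1 (5547 to 5674). They were 2644 for VASP (2296 to 2322), 99.8 for FHL3 (86.6 to 88.6), 20749 for MYH9 (18951 to 19133), 3465 for CAPZB (3397 to 3407), 7052 for CORO1A (6424 to 6488) and 1279 for MRTFA (1121 to 1142). For ACTR2 it was low, at 8015 (9360 to 9494). Without this library 42 members passed at high MYC, 41 at medium MYC, 24 for the difference and 46 between the DMSO groups.

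In the other DMSO libraries, high MYC replicate 1 was low for TMSB4X at 3166 (others 3633 to 3708), replicate 2 high for TLN1 at 5575 (5527 to 5534) and replicate 4 low for CAP1 at 2268 (2351 to 2366). Replicate 3 was low for FSCN1 at 139 (154 to 156) and for CAPZB at 1537 (1607 to 1615). At medium MYC replicate 2 was low for GSN at 372 (495 to 518). Among inhibitor libraries at high MYC, replicate 1 was low for PFN1 at 4300 (4592 to 4614) and replicate 3 low for EZR at 1662 (1696 to 1702). At medium MYC, replicate 1 was high for ACTR3 at 5023 (4838 to 4862) and for CAPZA1 at 4157 (3879 to 3918) and low for FSCN1 at 4439 (5134 to 5214), and replicate 2 was low for LIMA1 at 603 (656 to 667).

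The response to the inhibitor differed between the MYC levels for 23 members by the test of the difference itself, written as the high MYC minus the medium MYC log2 change. The values not given above were 0.16 for CFL1, 0.20 for WDR1, 0.20 for CAP1, 0.31 for VCL, 0.45 for PDLIM7, 0.41 for TLN1, 0.48 for ACTN1, 0.42 for MYL6 and 0.19 for TPM4. They were 0.28 for ARPC1B, 0.17 for ARPC2, 0.25 for ARPC5, 0.19 for ACTR3, 0.18 for CAPZB and 0.17 for CORO1C. For SRF, LIMA1, FLNA, CORO1A and EZR they were 0.87, 0.77, 0.64, 0.54 and 0.31, and for TMSB4X, MYL12B and MRTFA -0.56, -0.38 and -0.27.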

How the results depend on the processing

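Over all alternatives the number of members called stayed between 38 and 42 at high MYC, 40 and 42 at medium MYC, 19 and 26 for the difference, and 45 and 47 between the DMSO groups. Leaving out 1 library at a time gave 40 to 42, 41, 19 to 24 and 45 to 47. Over all genes the ranges were 3163 to 3939, 3202 to 3896, 1013 to 1646 and 7901 to 12068 calls. The median log2 change of the members lay between -0.30 and -0.36 at high MYC and between -0.47 and -0.52 at medium MYC in every alternative. Of 284 results for 71 genes, 257 kept their side of the threshold throughout, and of 8161 values 79 lost and 53 gained a call, with no called value reversed. The CFL1 difference was lost in 9 of 28 alternatives, ACTN1 in 6, CORO1C in 3 and ACTR3 in 1. The EZR difference between DMSO groups was lost in 5 of 29, and LSP1 gained one in 7. TPM1 at medium MYC gained a call in 5 of 28. With GC correction the medium MYC changes of FSCN1, LSP1 and MRTFA shrank to -0.13, -0.15 and -0.12 and stayed called (members have a median GC content of 52.9%, tested genes 48.1%). It also left LSP1 at -0.10 at high MYC, and put TAGLN2 at -0.22 and EZR at -0.14 between the DMSO groups. Quantile normalization gave differences in response of 0.35 for CFL1 and 0.33 for TPM4. The causes were not tested. Over all genes 2247 were lower and 1442 higher at high MYC, against 1768 and 1735 under quantile normalization. At medium MYC 2012 were lower and 1606 higher, against 1658 and 1962 with equal totals, so the background split depends on scaling.

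Residuals of same-numbered libraries correlated at -0.154 to -0.0106 at high MYC, -0.076 to 0.0494 at medium MYC and -0.0989 to 0.239 between DMSO groups. Such weak correlations cannot decide whether libraries with the same number shared a culture or day. With a replicate block 41, 41, 21 and 46 members and 3496, 3442, 1026 and 10419 genes were called. Depth limits ZYX and TPM1 at high MYC and the 3 untested members, where a library held at most 66 reads.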
